A study of Mus musculus with 8 samples.

Results

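The insulin-like growth factor (IGF) axis was followed in fibro/adipogenic progenitors (FAPs), the muscle-resident mesenchymal cells that can turn into fat cells or fibroblasts. The 10 genes described here were chosen by name out of the 31053 genes in the count tables: the ligands *Igf1* and *Igf2*, the receptors *Igf1r* and *Igf2r*, and the binding proteins *Igfbp2* to *Igfbp7*. All 10 were identified in the tables and all had counts in at least 1 sample. The FAPs came from hind limb muscles of 4 dystrophin-deficient mdx mice (strain C57BL/10ScSn-Dmdmdx/J, 45 days of age). CD45-positive and CD31-positive cells (leucocytes and endothelium) had been removed with magnetic beads and Integrin alpha-7-positive cells (muscle stem cells) by flow sorting, and the FAPs were sorted by surface SCA-1 into SCA1-High-FAPs (4 samples) and SCA1-Low-FAPs (4 samples). Both groups therefore carried the same *Dmd* mutation, and no wild type samples were part of this comparison. Before RNA was taken, both had grown for 5 days in growth medium (GM) with 20% fetal bovine serum, whose listed recipe contains no added insulin or IGF. Serum itself can bring IGFs and their binding proteins, which mRNA counts of the cells do not show.

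IGF-I and IGF-II act through the IGF-1 receptor, a tyrosine kinase that recruits the IRS adaptors and starts the PI3K-AKT and RAS-MAPK cascades. The IGF-2 receptor has no such kinase and takes IGF-II to lysosomes. Outside the cell, most IGF is held by the IGF binding proteins, which keep it from the receptor until proteases cut them, and some of which bind matrix or cells on their own account. In muscle, IGF-I is known for driving growth and repair of fibres. In the fat lineage, signals through the IGF-1 receptor favour adipogenesis.

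The samples held 1880561 to 3985656 counts on genes, so 3 counts, taken as the least this depth can show, stood at 0.753 to 1.60 CPM. The unit CPM expresses counts relative to the depth of their library, here corrected with TMM factors, and limits of this kind cover counting error only. The libraries were of the 3′ type, in which a transcript gives reads near its 3′ end whatever its length, so CPM of different genes were compared as levels with no division by length. Fold changes are on the log2 scale with SCA1-High-FAPs as the reference, which makes them negative where SCA1-High-FAPs had more of an mRNA. A gene was taken as differentially expressed when its adjusted p-value (edgeR, Benjamini-Hochberg) was under 0.05 and its log2 fold change was beyond 0.5 in size. Without replicate 3 of SCA1-Low-FAPs, the number of differentially expressed genes was 1017 in place of 782, while leaving out any other sample gave 410 to 682. Of the 8 FAP markers, 4 were differentially expressed, against 7.68% of all tested genes. Among these 4 was *Ly6a*, the gene of SCA-1, which was higher in the cells sorted for low surface SCA-1. It stood at 1087 CPM ± 58.8 against 711 ± 184 (SD, n = 4 each, log2 fold change 0.61, edgeR adjusted p = 0.0341). This level was read after 5 days of growth and not at the sort. The authors reported that surface SCA-1 of the sorted states overlapped after a longer expansion in another medium. The cause of the *Ly6a* difference was not tested. The 8 muscle cell markers summed to at most 15.2 CPM in a sample, with *Pax7*, *Myod1*, *Myf5*, *Myog* and *Myh3* at 0 counts throughout, and the 6 endothelial markers to at most 7.39 CPM. The 8 leucocyte markers summed to 25.3 to 48.0 CPM in SCA1-High-FAPs and 12.5 to 19.3 CPM in SCA1-Low-FAPs. Of these, *Adgre1*, *Itgam*, *Cd3e* and *Cd79a* were at 0 counts throughout, *Ptprc* had 1 count, and *Lyz2*, the lysozyme gene of macrophages, made up most of the sum and was higher in SCA1-High-FAPs (28.7 against 10.5 CPM, log2 fold change −1.42, adjusted p = 0.0153). The part of these cells in the results below was not tested.

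*Igf1* and *Igfbp4* were higher in SCA1-High-FAPs, and no gene of the axis passed both thresholds in the other direction. *Igf1* mRNA was 3.23-fold and *Igfbp4* mRNA 1.74-fold higher as ratios of the mean CPM. *Igfbp6* stood at 2.02-fold more in SCA1-Low-FAPs without passing the test, and neither receptor mRNA passed it. Of the 8 genes with enough counts for the test, 2 were differentially expressed, against 7.68% of the 10181 genes tested in the whole table (4.36% higher in SCA1-High-FAPs and 3.32% higher in SCA1-Low-FAPs). The median log2 fold change of these 8 was 0.09, and that of all tested genes was 0.0003. The members, and the gene lists used below, were chosen with earlier results of these data known. The shares over all genes are therefore background and no test.

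**Figure D1:**
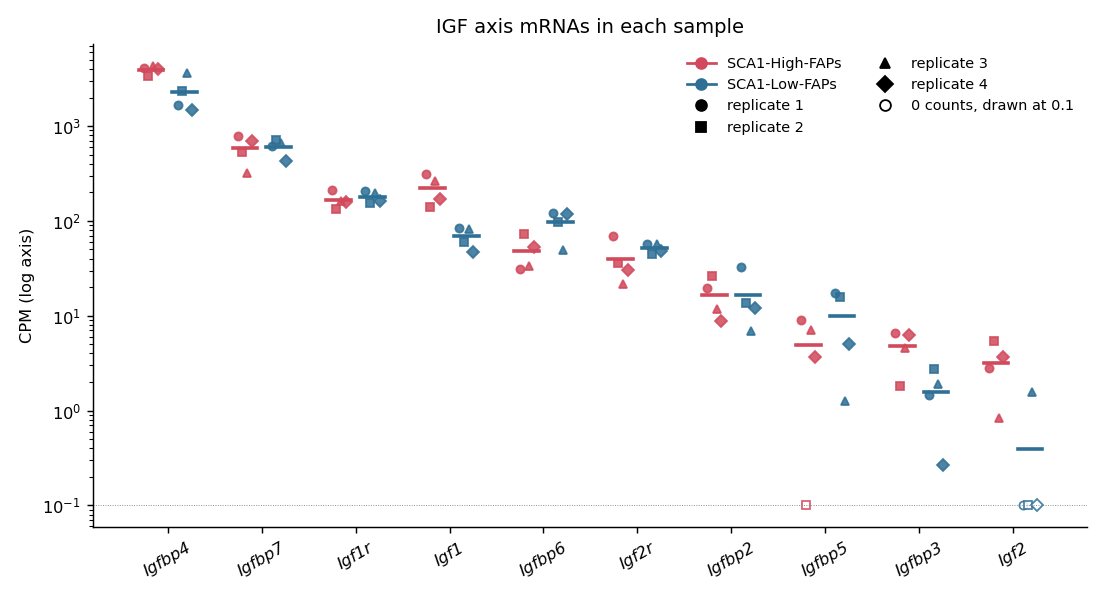
Level of each of the 10 IGF axis mRNAs in CPM (logarithmic axis), with 1 point per sample, colour for the cell state, point shape for the replicate number and a short line at the mean of 4 samples. Only *Igf1* among the tested genes shows 2 clouds that do not overlap, with all SCA1-High-FAPs at 142 CPM or more and all SCA1-Low-FAPs at 85.1 CPM or less.

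The order of the levels was led by *Igfbp4*, which ranked 12th of all genes by mean CPM in SCA1-High-FAPs and 32nd in SCA1-Low-FAPs. *Igfbp7* followed, and its lowest sample was above the highest sample of every gene further down, in each cell state. In SCA1-High-FAPs the next were *Igf1* (142 to 312 CPM) and *Igf1r* (133 to 214 CPM), whose ranges overlapped. In SCA1-Low-FAPs *Igf1r* (153 to 207 CPM) stood apart below *Igfbp7* and above *Igfbp6* (48.8 to 122 CPM) and *Igf1* (47.5 to 85.1 CPM), which overlapped. *Igf2r* came next to *Igfbp6* in SCA1-High-FAPs and next to *Igf1* in SCA1-Low-FAPs, overlapping it in each case. *Igfbp2* stood between 6.98 and 32.9 CPM in all samples and overlapped *Igf2r* in SCA1-High-FAPs but not in SCA1-Low-FAPs, and *Igfbp5*, *Igfbp3* and *Igf2* closed the order with levels that overlapped their neighbours.

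Among the ligands, *Igf1* lies on GRCm38 at chr10:87858265-87937042 on the plus strand. Its mRNA was at 312, 142, 262 and 170 CPM in replicates 1 to 4 of SCA1-High-FAPs and at 85.1, 60.4, 81.5 and 47.5 CPM in those of SCA1-Low-FAPs. Every SCA1-High sample was above every SCA1-Low sample, as was the case in one direction or the other for 14.1% of all tested genes. The means were 221 CPM ± 79.1 and 68.6 CPM ± 17.8 (SD, n = 4 each), from 2067 and 724 counts in all. The log2 fold change was −1.69 (SE 0.255, 95% interval −2.24 to −1.15, edgeR adjusted p = 0.00144), the 70th smallest p-value of the table. In the fits that left out 1 sample each, it stayed between −1.84 and −1.47, with adjusted p-values of 0.000724 to 0.00868.

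Adipocyte markers, as a sum, were also higher in SCA1-High-FAPs. The CPM of 8 such markers summed to 11189, 4669, 6814 and 2960 in replicates 1 to 4 of SCA1-High-FAPs, and to 759, 1080, 1441 and 507 in SCA1-Low-FAPs. Of the 8, 6 had enough counts for the test. Of these 6, 3 passed it, all higher in SCA1-High-FAPs, against 4.36% of all tested genes. Leptin (*Lep*) was at 0 counts in every sample. Replicates 1 and 3 of SCA1-High-FAPs had the most *Igf1* and the largest marker sums. Elsewhere the order differed. Replicate 4 of SCA1-High-FAPs had more *Igf1* than replicate 2 but a smaller sum. Replicate 1 of SCA1-Low-FAPs had the most *Igf1* of its state, but replicates 2 and 3 had larger sums. Over the 8 samples, *Lpl* gave most of the marker counts (40686). The part of these markers in the *Igf1* difference was not tested, and in bulk samples fewer cells of a type and less RNA per cell cannot be told apart.

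The 3 tested genes whose log2 CPM followed *Igf1* most closely over the 8 samples were *Gpc3*, a glypican of the cell surface (Pearson's r = 0.991), *Retn*, the adipocyte hormone resistin (r = 0.989), and *Col15a1*, a basement membrane collagen (r = 0.987). These values only describe the pattern, since all points share the difference between the cell states. All 3 were higher in SCA1-High-FAPs, with log2 fold changes of −1.90 for *Gpc3* (adjusted p = 0.00336), −4.49 for *Retn* (adjusted p = 0.000797) and −2.98 for *Col15a1* (adjusted p = 0.00103).

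*Igf2*, at chr7:142650766-142666816 on the minus strand, was counted 6, 12, 2 and 10 times in SCA1-High-FAPs and 0, 0, 5 and 0 times in SCA1-Low-FAPs. These 30 and 5 counts were too few for the main test. DESeq2, which tested it, gave an adjusted p of 0.178. The counts of *Igf2* also depend on the annotation. In GENCODE M21 the same-strand gene *Gm49394* shares 3596 of the 5723 exonic bases of *Igf2* (62.8%) and 497 of its last 500 exonic bases (99.4%). Reads there fit both genes and could be set aside as ambiguous by a counter of this kind. *Gm49394* had 0 counts in all samples, so the *Igf2* values cannot be read as its level.

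The maternally expressed lncRNA *H19*, the imprinted neighbour of *Igf2*, was counted well: it stood at 156, 156, 179 and 136 CPM in SCA1-High-FAPs and at 62.4, 66.4, 134 and 76.6 CPM in SCA1-Low-FAPs. The lowest SCA1-High sample, at 136.4 CPM, was just above the highest SCA1-Low sample, at 134.5 CPM. Its log2 fold change was −0.88 (SE 0.217, adjusted p = 0.0189), and the call was lost without replicate 3 of SCA1-High-FAPs or without replicate 1, 2 or 4 of SCA1-Low-FAPs, with adjusted p-values of at most 0.0798.

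Receptor mRNAs did not pass the test in either direction. *Igf1r*, at chr7:67952827-68233668 on the plus strand, was at 214, 133, 163 and 158 CPM in SCA1-High-FAPs and at 207, 153, 196 and 164 CPM in SCA1-Low-FAPs. The groups overlapped over almost their whole range. The log2 fold change was 0.11 (SE 0.170, edgeR adjusted p = 0.787), and its 95% interval of −0.25 to 0.46 does not reach the value of *Igf1*. *Igf2r*, at chr17:12682406-12769664 on the minus strand, was at 69.2, 36.2, 21.7 and 30.1 CPM in SCA1-High-FAPs and at 57.5, 44.6, 56.8 and 48.3 CPM in SCA1-Low-FAPs. Of the SCA1-High samples, 3 were below all SCA1-Low samples and 1 was above all of them. The log2 fold change was 0.41 (95% interval −0.21 to 1.02, adjusted p = 0.470). It was 0.83 without replicate 1 of SCA1-High-FAPs (adjusted p = 0.0672) and 0.21 without replicate 3 of SCA1-High-FAPs.

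The insulin receptor gene *Insr*, which encodes the closest relative of the IGF-1 receptor and can pair with it in hybrid receptors, was higher in SCA1-High-FAPs. Its levels were 19.8, 12.2, 17.1 and 16.1 CPM there and 7.25, 4.36, 6.98 and 5.02 CPM in SCA1-Low-FAPs, with no overlap. The log2 fold change was −1.46 (SE 0.393, adjusted p = 0.0291). The call was lost without replicate 1, 3 or 4 of SCA1-High-FAPs and without replicate 1, 2 or 4 of SCA1-Low-FAPs, with adjusted p-values of up to 0.0987.

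**Figure D2:**
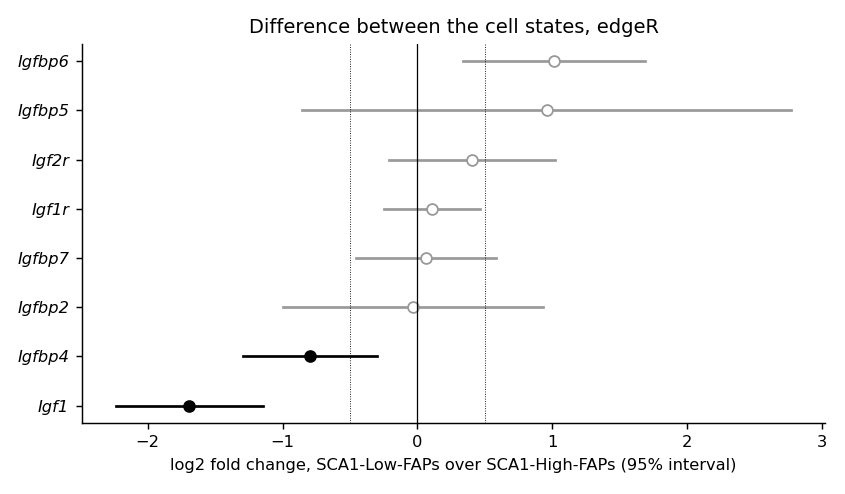
Log2 fold change (SCA1-Low-FAPs relative to SCA1-High-FAPs) for the 8 IGF axis genes tested (points) with the 95% interval from edgeR (lines), filled black for the 2 that passed both thresholds. Dotted lines mark a log2 fold change of 0.5 in either direction, and the interval of *Igfbp5* is the widest, from −0.86 to 2.77.

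The binding proteins share an N-terminal IGF-binding domain rich in cysteines, with a known signature of 6 fixed residues, glycines and cysteines. It is shown here because it is what most of these members share in sequence. The stretch of coding DNA that matches it best was read from GENCODE M21 transcripts, 5′ to 3′ on the coding strand, with capitals for the codons of matching signature residues.
Igfbp2: GGCTGCGGCTGCTGCtccgtgTGC
Igfbp3: GGCTGCGGCTGCTGCctgactTGC
Igfbp4: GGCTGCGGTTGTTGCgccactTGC
Igfbp5: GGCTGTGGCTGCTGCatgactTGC
Igfbp7: gcgTGCGGGTGCTGCccggtgTGT
All lie in exon 1 on GRCm38, at chr1:72824778-72824801 (*Igfbp2*, plus strand), chr11:7213566-7213589 (*Igfbp3*, minus strand), chr11:99041650-99041673 (*Igfbp4*, plus strand), chr1:72873966-72873989 (*Igfbp5*, minus strand) and chr5:77407826-77407849 (*Igfbp7*, minus strand). *Igfbp7*, a low-affinity IGF binder, matched 5 of the 6 fixed residues. No stretch of *Igfbp6*, whose product prefers IGF-II, matched more than 3 of the 6, so none is printed for it. The full signature was in frame in 18 of 21584 mouse genes (0.0834%), among them *Igfbp1* to *Igfbp5* and the CCN genes *Ccn1*, *Ccn2*, *Ccn5* and *Ccn6*. The rest were keratin-associated protein genes and genes with provisional names only, so the signature is not confined to these families.

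*Igfbp4*, at chr11:99041244-99054392 on the plus strand, encodes a soluble binding protein best known for keeping IGF from its receptor. Its mRNA stood at 4087, 3372, 4312 and 4046 CPM in SCA1-High-FAPs and at 1680, 2364, 3597 and 1471 CPM in SCA1-Low-FAPs. Replicate 3 of SCA1-Low-FAPs was above replicate 2 of SCA1-High-FAPs, and the other SCA1-Low samples were below all SCA1-High samples. The means were 3954 CPM ± 405 and 2278 CPM ± 958 (SD, n = 4 each), with a log2 fold change of −0.80 (SE 0.231, 95% interval −1.29 to −0.30, edgeR adjusted p = 0.0498). This p-value sat at the threshold. The call was lost whenever a replicate other than replicate 3 of SCA1-Low-FAPs was left out, with adjusted p-values of 0.0593 to 0.148 and log2 fold changes of −0.86 to −0.64. Without replicate 3 of SCA1-Low-FAPs, the log2 fold change was −1.12 (adjusted p = 0.000661).

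The gene nearest to *Igfbp4* in pattern was *Col3a1*, which encodes a fibrillar collagen and is on the FAP marker list (r = 0.990 over 8 samples). *Pccb*, a mitochondrial carboxylase subunit, had r = 0.990 and *Map4k3*, a kinase, had r = 0.981. *Col3a1* was itself higher in SCA1-High-FAPs (log2 fold change −1.03, adjusted p = 0.0294), whereas *Pccb* and *Map4k3* did not pass the test. The 8 FAP markers summed to 13183 to 16040 CPM in SCA1-High-FAPs and 8435 to 14073 CPM in SCA1-Low-FAPs, with 2 markers higher in each state. Over the 8 samples, the collagen genes *Col1a1* (142071) and *Col3a1* (75654) gave most of the counts in this sum. The part of the FAP markers in the *Igfbp4* difference was not tested, nor was that of the adipocyte markers given above.

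*Igfbp6*, at chr15:102144362-102149511 on the plus strand, was at 31.1, 73.2, 33.8 and 52.8 CPM in SCA1-High-FAPs and at 122, 96.4, 48.8 and 119 CPM in SCA1-Low-FAPs. Again replicate 3 of SCA1-Low-FAPs fell within the SCA1-High range, and the other SCA1-Low samples were above all SCA1-High samples. The means were 47.7 CPM ± 19.6 and 96.6 CPM ± 33.9 (SD, n = 4 each), with a log2 fold change of 1.01 (SE 0.314, 95% interval 0.34 to 1.69, edgeR adjusted p = 0.0663). The outcome depended on the fit and the genes tested, with an adjusted p of 0.0213 in DESeq2 and 0.0229 in edgeR when all 15873 genes with a count were tested. It also depended on single samples, with an adjusted p of 0.00597 without replicate 3 of SCA1-Low-FAPs and 0.0199 without replicate 2 of SCA1-High-FAPs.

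Cell cycle genes moved in the same direction. The CPM of 8 proliferation markers summed to 602 to 827 in SCA1-High-FAPs and 1160 to 1716 in SCA1-Low-FAPs. By the test, 8 of 8 were higher in SCA1-Low-FAPs, against 3.32% of all tested genes. These markers describe the cultures after 5 days of growth and are no measure of growth rate. The authors reported a shorter doubling time in culture and more EdU uptake in the animal for SCA1-High-FAPs. In their cultures, Ki-67-positive cells fell sooner in SCA1-High-FAPs, which they ascribed to earlier confluence. Replicate 3 of SCA1-Low-FAPs had the lowest sum of its state. One of the 3 genes nearest to *Igfbp6* in pattern was *Kif15*, a mitotic kinesin (r = 0.974 over 8 samples), beside *Ehbp1l1* (r = 0.987) and *Dnajc10*, a chaperone of the endoplasmic reticulum (r = 0.974). The part of proliferation in the *Igfbp6* values was not tested.

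**Figure D3:**
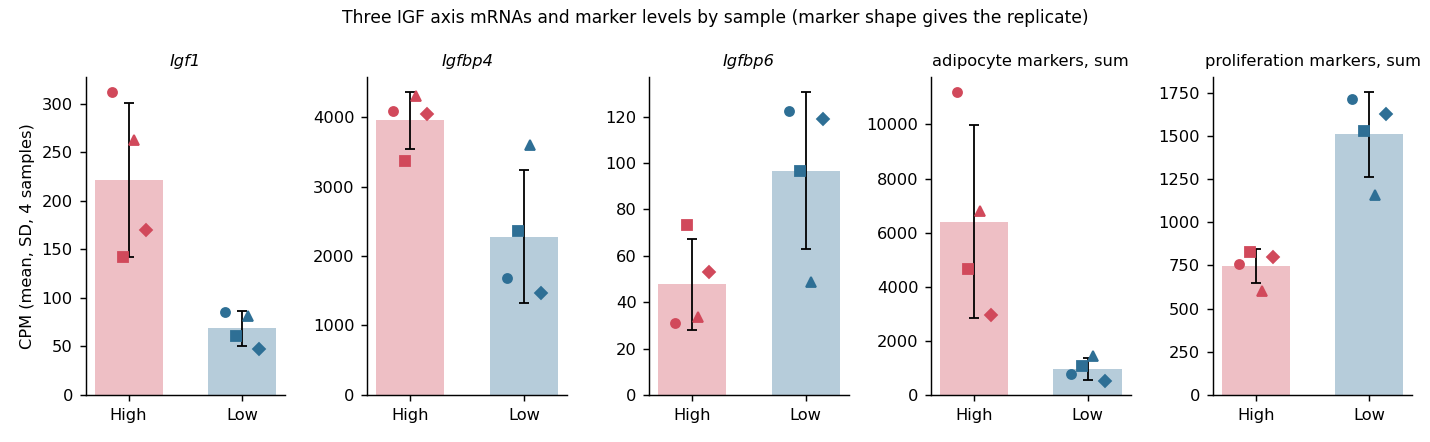
CPM of *Igf1*, *Igfbp4* and *Igfbp6* beside the summed CPM of 8 adipocyte and 8 proliferation markers, with 1 point per sample (shape for the replicate number), bars for the mean of 4 samples and error bars for the SD. Replicate 3 of SCA1-Low-FAPs (triangle) is the SCA1-Low sample closest to the SCA1-High values for *Igfbp4* (3597 CPM), *Igfbp6* (48.8 CPM) and both marker sums.

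*Igfbp7*, at chr5:77349240-77408041 on the minus strand, was at 781, 539, 321 and 690 CPM in SCA1-High-FAPs and at 613, 720, 670 and 433 CPM in SCA1-Low-FAPs. All SCA1-Low values lay within the SCA1-High range. The log2 fold change was 0.06 (95% interval −0.46 to 0.58, adjusted p = 0.923). Its last 500 exonic bases share 85 with the opposite-strand gene *Polr2b*, and the strand setting of the counting is not given in the sources used here.

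*Igfbp2* and *Igfbp5* are neighbours that run towards each other on chromosome 1, at chr1:72824503-72852474 and chr1:72857932-72874884, with 5457 bases between their ends. *Igfbp2*, expressed by preadipocytes, was at 19.8, 26.2, 11.7 and 8.80 CPM in SCA1-High-FAPs and at 32.9, 13.6, 6.98 and 12.1 CPM in SCA1-Low-FAPs. The groups overlapped, with a log2 fold change of −0.03 (95% interval −0.999 to 0.93, adjusted p = 0.978). *Igfbp5*, whose product also binds extracellular matrix, had 19, 0, 17 and 10 counts in SCA1-High-FAPs and 36, 29, 4 and 19 counts in SCA1-Low-FAPs. Its log2 fold change of 0.96 had an SE of 0.847 (adjusted p = 0.576), and it ran from 0.52 to 1.40 when single samples were left out. *Igfbp3*, the main carrier of IGF in blood, at chr11:7206086-7213923 on the minus strand, had 14, 4, 11 and 17 counts in SCA1-High-FAPs and 3, 5, 6 and 1 in SCA1-Low-FAPs. It was too low for the main test, and DESeq2 gave a log2 fold change of −1.66 (adjusted p = 0.246). Neither *Igfbp1* nor *Igfbpl1* had a count in any sample, which allows up to 1.60 CPM in the shallowest one.

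The make-up of the binding protein mRNA followed from these values. Summed over *Igfbp2* to *Igfbp7*, it ran from 4012 to 4935 CPM in SCA1-High-FAPs and from 2041 to 4325 CPM in SCA1-Low-FAPs. *Igfbp4* held 82.8% to 91.9% of these counts in SCA1-High-FAPs and 68.1% to 83.2% in SCA1-Low-FAPs. *Igfbp7* held 6.84% to 15.8% and 15.5% to 24.8%, and *Igfbp6* 0.630% to 1.83% and 1.13% to 5.83%. All 3 shares overlapped between the states, and the overlap came from replicate 3 of SCA1-Low-FAPs alone.

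Ratios within a sample do not depend on the scaling between samples. There were 1.06 to 1.61 *Igf1* counts for each *Igf1r* count in SCA1-High-FAPs and 0.290 to 0.416 in SCA1-Low-FAPs, with no overlap. The ratio of *Igfbp6* to *Igf1* counts was 0.0997 to 0.516 in SCA1-High-FAPs and 0.599 to 2.51 in SCA1-Low-FAPs, again without overlap. All binding protein counts together were 15.8 to 28.3 times those of *Igf1* in SCA1-High-FAPs and 29.0 to 53.1 times in SCA1-Low-FAPs. Other ratios overlapped between the states: *Igfbp4* to *Igf1* (13.1 to 23.8 in SCA1-High-FAPs and 19.7 to 44.1 in SCA1-Low-FAPs), *Igfbp4* to *Igfbp6* (46.0 to 131.5 and 12.4 to 73.6) and *Igf1r* to *Igf2r* (3.10 to 7.50 and 3.39 to 3.61). These ratios were formed after the levels were known and carry no test.

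**Figure D4:**
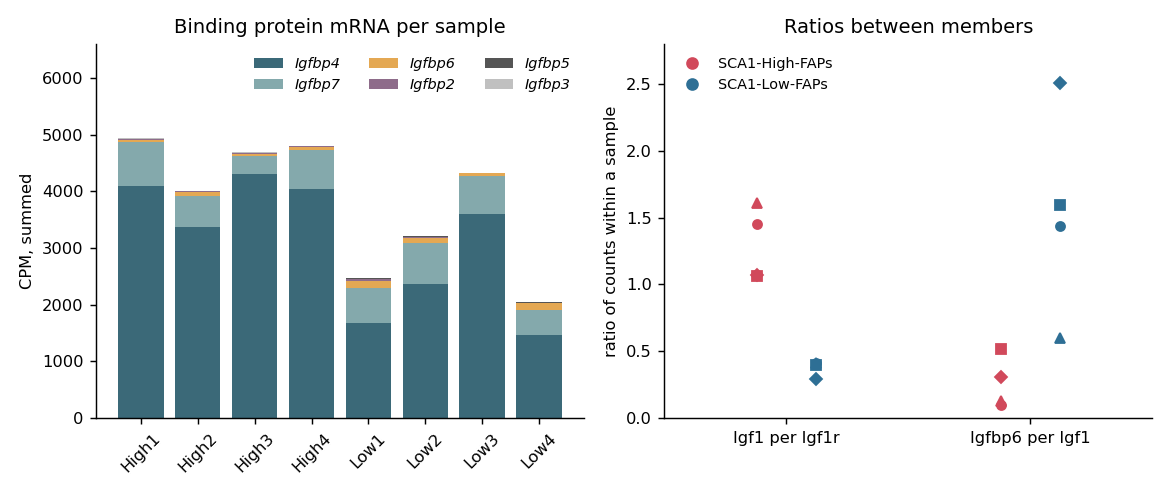
Left, CPM of the 6 binding protein mRNAs stacked for each sample. Right, ratio of *Igf1* to *Igf1r* counts and of *Igfbp6* to *Igf1* counts in each sample (colour for the cell state, shapes for replicate 1, circle, 2, square, 3, triangle, and 4, diamond). The columns are mostly *Igfbp4*, and each ratio separates the 4 SCA1-High from the 4 SCA1-Low samples.

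Proteases release IGF by cutting the binding proteins, and other proteins restrain those proteases. Of 27 such genes, 23 were tested and 6 passed both thresholds, 5 with more mRNA in SCA1-High-FAPs and 1 with more in SCA1-Low-FAPs, where 4.36% and 3.32% of all tested genes did so. The median log2 fold change was −0.25. This list was chosen with earlier results of these data known, so the shares are background and no test of it. *Pappa*, which encodes pappalysin-1, the protease of IGFBP-4, was at 239 to 285 CPM in SCA1-High-FAPs and 176 to 279 CPM in SCA1-Low-FAPs, with a log2 fold change of −0.25 (95% interval −0.58 to 0.09, adjusted p = 0.411). *Stc1*, encoding stanniocalcin-1, an inhibitor of pappalysins, was at 732, 435, 670 and 374 CPM in SCA1-High-FAPs and 173, 260, 331 and 193 CPM in SCA1-Low-FAPs, with no overlap. Its log2 fold change was −1.21 (SE 0.246, adjusted p = 0.00936). *Stc2* reached at most 7.25 CPM and was not tested.

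The serine proteases *Htra1* and *Htra3* were also higher in SCA1-High-FAPs. *Htra1* stood at 22.0 to 78.5 CPM against 10.1 to 18.5 CPM (log2 fold change −1.76, adjusted p = 0.00853), and *Htra3* at 18.5 to 52.2 CPM against 7.61 to 14.5 CPM (−1.46, adjusted p = 0.0150). The *Htra3* call was lost without replicate 3 of SCA1-High-FAPs (adjusted p = 0.0692). *C1ra*, a complement protease gene with a near-identical copy that can take a share of its reads, was at 88.4 to 183 CPM against 27.1 to 69.8 CPM (−1.57, adjusted p = 0.00634). *Mmp19*, a matrix metalloproteinase gene, was at 81.8 to 107 CPM against 40.6 to 71.7 CPM (−0.84, adjusted p = 0.0187), and lost its call without replicate 3 of SCA1-High-FAPs or replicate 1, 2 or 4 of SCA1-Low-FAPs (adjusted p up to 0.0768). Neither *Ctsd*, the lysosomal protease cathepsin D (0.18, adjusted p = 0.535), nor *Lrp1*, an endocytic receptor that can bind IGFBP-3 (0.42, adjusted p = 0.0759), passed the test.

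A further 8 genes encode relatives with the same N-terminal domain, most of them CCN matricellular proteins. All 8 were tested, 1 was differentially expressed and the median log2 fold change was 0.33. Of all tested genes, 7.68% were differentially expressed. *Ccn3* was at 153, 48.8, 61.8 and 76.6 CPM in SCA1-High-FAPs and at 20.8, 26.7, 38.1 and 20.3 CPM in SCA1-Low-FAPs, with a log2 fold change of −1.68 (SE 0.336, adjusted p = 0.00762).

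Downstream of the receptor, 56 signalling genes were tested and 6 were differentially expressed, 4 higher in SCA1-High-FAPs and 2 higher in SCA1-Low-FAPs, with a median log2 fold change of −0.16. Over all tested genes the share was 7.68%. *Irs1*, which encodes an adaptor that docks on the activated receptor, was at 154, 71.9, 91.0 and 100.8 CPM in SCA1-High-FAPs and at 33.8, 44.6, 69.5 and 28.8 CPM in SCA1-Low-FAPs, with no overlap (log2 fold change −1.24, SE 0.282, adjusted p = 0.0140). The call was lost without replicate 1 or 2 of SCA1-Low-FAPs (adjusted p up to 0.0604). *Irs2*, encoding its relative, was at 71.1 to 113 CPM against 38.1 to 65.3 CPM (−0.92, adjusted p = 0.0128). *Pik3r1*, encoding the regulatory subunit p85-alpha of PI3K, was at 293, 296, 313 and 209 CPM against 144, 136, 118 and 126 CPM (−1.09, SE 0.158, adjusted p = 0.000672). *Deptor*, encoding an inhibitor bound to mTOR, had the largest fold change of the 6, with 86.2, 66.9, 88.9 and 49.9 CPM against 11.6, 8.71, 27.3 and 7.39 CPM (−2.38, SE 0.362, adjusted p = 0.00129).

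The 2 signalling genes higher in SCA1-Low-FAPs lost their calls in most fits that left a sample out. *Hras*, a RAS gene, was at 36.7 to 49.4 CPM in SCA1-High-FAPs and 49.2 to 90.5 CPM in SCA1-Low-FAPs (0.84, adjusted p = 0.0270), and lost its call without replicate 2, 3 or 4 of SCA1-High-FAPs or replicate 1 or 4 of SCA1-Low-FAPs (adjusted p up to 0.125). *Socs2*, a suppressor of growth hormone signalling, was at 121 to 152 CPM and 175 to 272 CPM (0.57, adjusted p = 0.0465), and passed in only 1 of the 8 fits that left a sample out, the one without replicate 3 of SCA1-Low-FAPs (adjusted p up to 0.209). The kinase genes *Akt1* (0.34, adjusted p = 0.200) and *Mtor* (0.16, adjusted p = 0.794), the transcription factor gene *Foxo1* (0.26, adjusted p = 0.663) and the receptor-binding adaptor gene *Grb10* (−0.40, adjusted p = 0.153) did not pass the test.

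**Figure D5:**
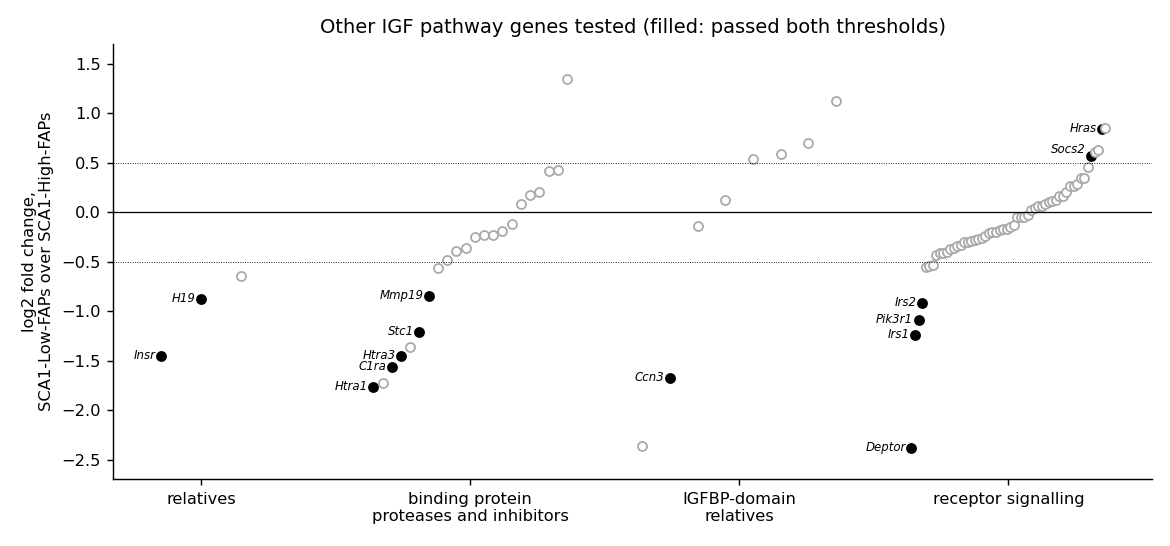
Log2 fold change (vertical axis, SCA1-Low-FAPs relative to SCA1-High-FAPs) for the tested genes of 4 lists of other IGF pathway genes, ordered by value within each list. Filled points are differentially expressed genes. They were 2 of 3 relatives of the axis and 6 of 23 genes on the protease and inhibitor list (1 of them not drawn). The others were 1 of 8 genes with an IGFBP domain and 6 of 56 signalling genes. Of all tested genes, 7.68% were differentially expressed.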

How the data were processed

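RNA from 8 samples (4 SCA1-High-FAPs, 4 SCA1-Low-FAPs) was made into QuantSeq 3′ libraries. Reads were trimmed, aligned to mm10 with STAR and counted on Ensembl genes with htseq-count by the authors, who deposited raw counts per gene. Multiply aligned and ambiguous reads were set apart. Multiply aligned reads were 37.5% to 39.7% of all reads in SCA1-High-FAPs and 40.8% to 43.3% in SCA1-Low-FAPs, without overlap. The part of this difference in the results was not tested. Ambiguous reads were 0.605% to 0.793% of unique ones. The strand setting is not given in the sources used here.

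Here, 10181 genes passed filterByExpr (minimum 10 counts, total 15) and were compared with edgeR 4.0.16 (robust quasi-likelihood test, R 4.3.3, TMM, Benjamini-Hochberg over all tested genes). SE is |log2 fold change|/√F. Alternatives were DESeq2 1.42.0, other scalings, filters and thresholds, the replicate number as a block, and each replicate left out. On simulated data, the main test called 85 of 100 genes changed 4-fold and 42 of 100 changed 2-fold. Of its 133 calls, 6 were false. A 2-fold difference was thus often missed. No 2 samples of the same cell state were duplicates. The labels describe 4 mice as biological replicates and tie no replicate number to a mouse. Samples of the cell states may therefore share a mouse, whereas the main test takes all samples as independent. Coordinates are from GENCODE M21 (GRCm38), matched by gene identifier. Python 3.11.15 and matplotlib 3.10.9 drew the figures.

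The members and gene lists were chosen with earlier results of these data known. Named are all 10 members, the differentially expressed genes of each list, a fixed few others, and for each tested member the 3 genes with the highest Pearson correlation of log2 CPM. *Igfbp1*, *Igfbpl1*, *Ccn6* and the markers were named beside these. Of the protease and inhibitor list, 1 differentially expressed gene is counted but not reported here.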

Additional observations from a re-analysis of the deposited data

Results flagged for a closer look

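Each cell state was examined for a sample standing apart, for the 10 members and 6 ratios between them. Of 32 sets of 4 samples, 3 had a highest or lowest sample whose gap to its nearest neighbour took up more of the whole range than the 95% critical value of Dixon's test allows, and chance alone flags about 1 in 20 such sets. *Igf2* had 5 counts in replicate 3 of SCA1-Low-FAPs (1.59 CPM) and 0 in the other 3 samples of that state. *Igfbp4* held 91.9% of the binding protein counts in replicate 3 of SCA1-High-FAPs, where the next highest sample had 84.2%. The ratio of *Igf1* to *Igf1r* counts was 0.290 in replicate 4 of SCA1-Low-FAPs, where the next lowest sample had 0.395.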

How the results depend on the processing

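*Igf1* kept its direction and its call in all alternatives and with each replicate left out. Of the 10 members, 1 was differentially expressed with library size scaling only (*Igfbp4*, adjusted p = 0.0708, was lost) and 1 at an adjusted p of 0.01; with a replicate left out the number ran from 1 to 3. Without a filter, *Igfbp6* also passed (adjusted p = 0.0229). The sign of 2 members near 0 turned when single replicates were left out: *Igfbp2* (log2 fold change −0.60 to 0.29 over these fits, positive at 0.07, 0.29, 0.04, 0.22 and 0.09 without replicates 1 and 2 of SCA1-High-FAPs and 2, 3 and 4 of SCA1-Low-FAPs) and *Igfbp7* (−0.14 to 0.24, negative at −0.14 without replicate 3 of SCA1-High-FAPs and −0.02 without replicate 2 of SCA1-Low-FAPs). Over all genes, 782 calls became 307 at an adjusted p of 0.01 and 410 to 1017 with a replicate left out. The relatives fell from 2 calls to 1 with at least 10 counts in every sample, to 1 in both fits with the replicate block, to 0 at an adjusted p of 0.01, and to 0 to 2 with a replicate left out. At that p the protease and inhibitor list had 3 calls and signalling had 2. With a replicate left out these ran from 5 to 9 and from 3 to 8, and IGFBP-domain genes from 1 to 2. The latter had 2 with DESeq2 and 2 without a filter. The cause of these shifts was not tested.

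Replicate numbers are shared by the cell states, but same-numbered samples did not deviate together (correlations of −0.0502 to 0.00673), and no sample correlated best with its own number. With the number as a block, 697 genes and 3 members passed (*Igfbp6*, adjusted p = 0.0359, was added), *Insr* (0.0553) and *Socs2* (0.0973) were lost and *Igf1* (0.000185) and *Igfbp4* (0.0279) stayed. *Igf2* and *Igfbp3*, with 35 and 61 counts over 8 samples, were too low for the main test.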

Other observations

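Apart from *Igfbp6*, given above, the tested members that did not pass the test shared their patterns with genes of other kinds. Over the 8 samples, *Igf1r* followed *Rpp38* (Pearson's r = 0.986), *Rce1* (r = 0.976) and *Fbxo22* (r = 0.961) most closely. *Igf2r* followed *Zfp593* (r = 0.969), *Zbtb8a* (r = 0.964) and *Cnot4* (r = 0.963). *Igfbp7* followed *Crtap*, needed for collagen prolyl 3-hydroxylation (r = 0.988), *Abi2* (r = 0.987) and *Edem1*, which acts in disposal of misfolded proteins of the endoplasmic reticulum (r = 0.986). *Igfbp2* followed *BC034090* (r = 0.971), *Syne1* (r = 0.958) and *Edn1*, the endothelin-1 gene (r = 0.948), and *Igfbp5* followed *Cln3* (r = 0.953), *Inka1* (r = 0.951) and *Polb* (r = 0.939). None of these 15 genes passed both thresholds, with edgeR adjusted p-values of 0.348 or more. They were picked for likeness to members that did not pass, so this is no separate result. The 8 samples are few, and these values describe the samples only.

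*Igf2bp2*, an RNA-binding protein gene named for its binding to *Igf2* mRNA, was at 51.8, 49.3, 55.9 and 40.3 CPM in SCA1-High-FAPs and at 32.9, 22.9, 31.1 and 38.5 CPM in SCA1-Low-FAPs. The groups did not overlap, and the log2 fold change of −0.64 did not pass the test (adjusted p = 0.0999). It is named here because its values were seen.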
